A study of Homo sapiens with 24 samples.

Results

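The 37 genes described here belong to autophagy and the lysosome: 20 genes of the autophagy machinery, the transcription factors TFEB and TFE3, and 15 lysosomal genes, of 14585 genes in the deposited table. They were chosen by name, and every one of the 37 was found in the table and had enough counts to be tested in both cell lines. Autophagy encloses parts of the cytoplasm in a double membrane, the autophagosome, which then fuses with a lysosome. A kinase complex (ULK1, ULK2, ATG13) starts the process, a lipid kinase complex (BECN1 with ATG14 or UVRAG) marks the membrane, and ATG9A, ATG2A and the WIPI proteins supply and shape it. Conjugation enzymes (ATG5, ATG7, ATG12, ATG16L1) attach proteins of the ATG8 family (MAP1LC3B and the GABARAP proteins) to the membrane, where receptors such as SQSTM1 and NBR1 bring in the cargo. In the lysosome, a proton pump (the V-ATPase) acidifies the lumen, and proteases, glycosidases and lipases break the cargo down. TFEB and TFE3 are related factors that bind E-boxes in the promoters of many of these genes.

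RNA was sequenced from A549 cells, a human lung adenocarcinoma line, and Huh7 cells, a human hepatocellular carcinoma line, both labelled as wild type. For p53, however, the paper describes A549 cells as wild type and Huh7 cells as mutant. Each line was kept as control or treated with an ethanol extract of P. chinensis (Pulsatilla chinensis), B. chinense (Bupleurum chinense) or P. umbellatus (Polyporus umbellatus), giving 8 groups of 3 replicates. The extract dose, the length of exposure and the use of solvent in the control cells are not given, for the sequenced samples, in the sources used here. Nothing says that replicates came from separate cultures, so p-values measure the spread between these samples, which may be technical.

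The libraries summed to between 6803704 and 24345541 estimated counts. The liver genes ALB, AFP and APOB were at no more than 1.56 CPM (counts scaled to the same library total) in any A549 library and at 1880 CPM or more in every Huh7 library. Conversely, the A549 markers KRT7 and KRT81 were at 1590 CPM or more in A549 cells and at no more than 0.605 CPM in Huh7 cells. Of the markers of other cell types, PTPRC (leukocytes) and COL3A1 (fibroblasts) stayed at or below 3.39 CPM in all libraries. PECAM1, an endothelial marker, was at 32.9 to 57.7 CPM in Huh7 cells. Another, CD68, which encodes a lysosomal protein of macrophages, was at 15.1 to 42 CPM over both lines. In Huh7 cells, replicate 2 of P. umbellatus stood apart. Its gene counts differed from those of the other two replicates by a median of 13.3 and 17.6 times the chi-square value of sampling alone, against 2.74 to 5.36 times for all other replicate pairs of the series. Results in Huh7 cells are therefore also given without this library.

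The sequences in front of the genes are shown first, because TFEB and TFE3 are known to bind the E-box CACGTG and its longer form TCACGTGA. RefSeq promoters (GRCh38.p14, 250 bases before to 50 after the start of the gene) were found for 31 of the 37 genes, and both strands were searched. CACGTG was present in 6 of the 10 lysosomal promoters, in 1 of the 19 machinery promoters and in 0 of the 2 promoters of TFEB and TFE3, against 9.772% of the 11758 promoters of genes in the deposited table. The form TCACGTGA, which contains CACGTG, was present in 4 lysosomal promoters and 0 machinery promoters, against 1.812% of all. A match is a description of the letters and does not show binding. The stretches below hold a match in capitals, extended to TCACGTGA where the flanking letters allow.
LAMP1, chr13:113297063-113297102, plus strand: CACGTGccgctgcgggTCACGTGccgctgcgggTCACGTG
LAMP1, chr13:113297194-113297233, plus strand: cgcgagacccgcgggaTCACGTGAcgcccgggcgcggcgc
MCOLN1, chr19:7522566-7522605, plus strand: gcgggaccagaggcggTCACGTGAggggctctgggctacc
ATP6V0D1, chr16:67481194-67481233, minus strand: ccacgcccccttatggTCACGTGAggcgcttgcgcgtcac
CTSA, chr20:45891293-45891332, plus strand: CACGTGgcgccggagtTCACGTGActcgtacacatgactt
CTSD, chr11:1763952-1763991, minus strand: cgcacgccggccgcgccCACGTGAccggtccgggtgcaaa
NEU1, chr6:31862925-31862964, minus strand: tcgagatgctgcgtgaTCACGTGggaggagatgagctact
ATG14, chr14:55411831-55411868, minus strand: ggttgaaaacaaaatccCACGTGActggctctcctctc
LAMP1 had 6 matches in its window, MCOLN1 and CTSA had 2 each, and the other 4 genes had 1 each.

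In control cells, the levels of the 37 genes spanned over 2 orders of magnitude. Levels were taken per kilobase of the transcript that the annotation marks as canonical. On this measure the receptor SQSTM1 was the highest in A549 cells, at 294 ± 11.7 CPM per kb (SD, n = 3). It was followed by PSAP, the precursor of the saposins that help lipid breakdown, at 236 ± 2.18, and by the aspartic protease CTSD at 158 ± 2.9. CTSL, a cysteine protease, and GABARAP (107 ± 1.5) came next, with ranges that overlapped. In Huh7 cells the order began with PSAP (299 ± 5.22 CPM per kb), SQSTM1 (204 ± 12.7), CTSD (148 ± 5.15), GABARAP (104 ± 6.31) and CTSA (89 ± 1.94). The sialidase NEU1 (1.14 ± 0.195 CPM per kb) and TFEB (1.74 ± 0.451) were the lowest in A549 cells, and the kinase ULK2 (0.261 ± 0.0296) and TFEB (0.732 ± 0.155) in Huh7 cells. So TFE3, at 32.3 ± 4.33 CPM per kb in A549 cells and 34.8 ± 2.1 in Huh7 cells, was the more abundant of the pair of factors in both lines.

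The lines differed at baseline for many of these genes. Of the 37, 12 were higher and 11 lower in A549 control cells than in Huh7 control cells at an adjusted p below 0.05 (edgeR's quasi-likelihood test, adjusted by Benjamini-Hochberg over 12924 genes), where 33.8% of all genes tested were higher and 34.9% lower. The shares of the 37 were thus close to those of all genes. The largest differences were those of ULK2 (log2 fold change 3.98, SE 0.15) and CTSL (3.71, SE 0.14), both higher in A549 cells. NEU1 (-1.54, SE 0.41), WIPI1 (-1.26, SE 0.20), the lysosomal membrane protein LAMP2 (-1.07, SE 0.09) and CTSA (-1.002, SE 0.08) were lower in A549 cells. TMM scales the libraries to each other, so that in bulk samples a difference in the number of cells or in total RNA per cell could not be seen.

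In A549 cells, genes of both arms rose with every extract. P. chinensis raised 20 of the 37 genes and lowered 1, against 15.8% of all genes tested higher and 17.1% lower. B. chinense raised 16 and lowered 0, against 13.1% higher and 15% lower. P. umbellatus raised 16 and lowered 2, against 13.4% higher and 14.8% lower. Of the 20 machinery genes, 11 were higher with P. chinensis and 7 with each of the other extracts. Among the 15 lysosomal genes, 8 were higher with each extract. The median log2 fold change of the machinery was 0.24, 0.15 and 0.18 for the extracts in the order given, and that of the lysosomal genes was 0.22, 0.26 and 0.20. Over all genes tested the medians were 0.014, -0.0018 and -0.012. The 3 comparisons share the 3 control libraries, so their values are given side by side and not as separate support. Most changes were small, as the heat map of the 37 genes shows.

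**Figure D1:**
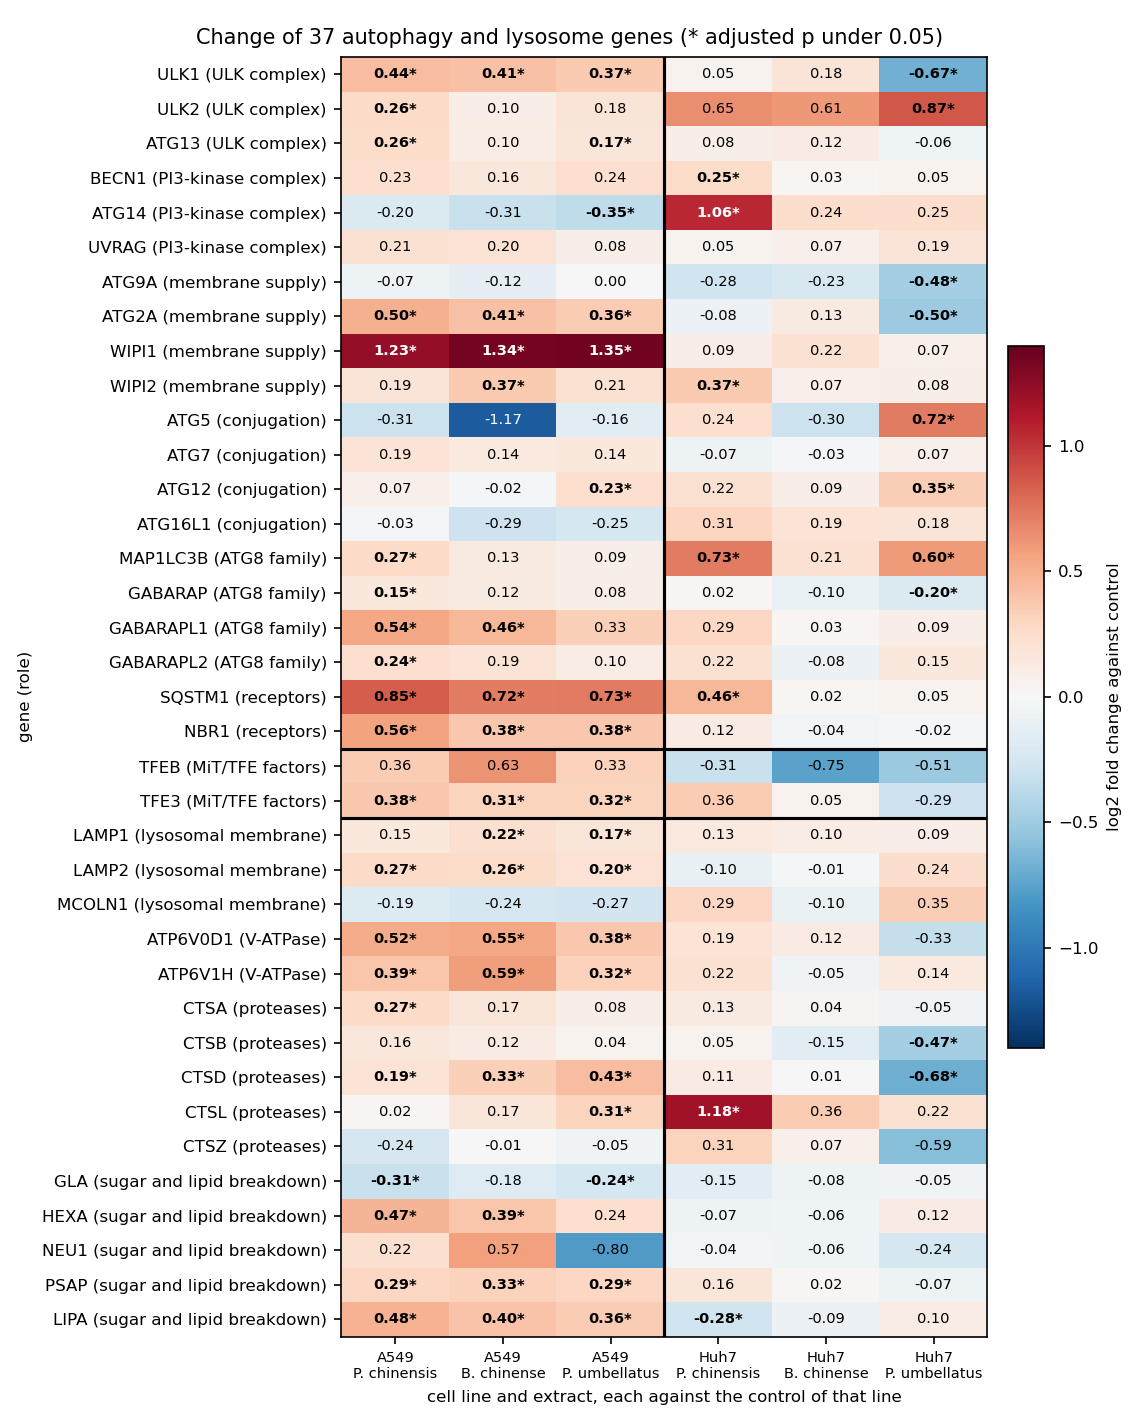
Log2 fold change against control for the 37 genes (rows, with their role) in 3 extracts and 2 cell lines (columns); red is higher, blue is lower, and an asterisk marks an adjusted p below 0.05. WIPI1 has the largest marked values in A549 cells (1.23 to 1.35), CTSL (1.18) and ATG14 (1.06) in Huh7 cells with P. chinensis, and no value is marked for B. chinense in Huh7 cells.

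WIPI1 changed most in A549 cells. It encodes a protein that binds the lipid made by the BECN1 complex on the growing membrane. Its gene lies at chr17:68420948-68457513 on the minus strand (GRCh38). WIPI1 was at 9.53, 7.50 and 7.76 CPM in the control libraries and at 18.5, 21.0 and 20.2 CPM with P. chinensis. With B. chinense it was at 25.9, 21.6 and 17.01 CPM, and with P. umbellatus at 21.4, 24.9 and 19.96 CPM. Every treated library was above every control library, and the treated groups overlapped each other. The rise was 2.34-fold with P. chinensis (log2 1.23, SE 0.16, adjusted p = 4.15e-05), 2.53-fold with B. chinense (log2 1.34, SE 0.16, adjusted p = 2.86e-05) and 2.55-fold with P. umbellatus (log2 1.35, SE 0.16, adjusted p = 2.24e-05). In Huh7 cells WIPI1 began at 19.5 to 20.8 CPM in the control libraries, near the level that A549 cells had with the extracts, and no change was called. There its libraries with P. umbellatus spread from 13.1 to 28.4 CPM. WIPI1 shares 829 exonic bases with ARSG on the opposite strand, whose log2 fold changes in A549 cells were 0.28, 0.58 and 0.30 with no adjusted p below 0.0674. The related gene WIPI2 was called in A549 cells with B. chinense (log2 0.37, SE 0.12, adjusted p = 0.0369) and was at log2 0.19 and 0.21 with P. chinensis and P. umbellatus. This call was lost without control replicate 1 or 3, without B. chinense replicate 1 or 2, and when each library was corrected for the GC content and length of the genes.

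Both cargo receptors rose in A549 cells. SQSTM1, also called p62, carries ubiquitinated proteins to the autophagosome, is itself broken down there, and is also known as a target of NRF2. SQSTM1 was at 852, 859 and 798 CPM in control A549 libraries and at 1521, 1461 and 1607 CPM with P. chinensis. It was at 1379, 1475 and 1382 CPM with B. chinense and at 1469, 1397 and 1446 CPM with P. umbellatus. The control and treated values did not overlap, and the rise was 1.80-fold (log2 0.85, SE 0.05, adjusted p = 1.07e-08), 1.648-fold (log2 0.72, SE 0.05) and 1.66-fold (log2 0.73, SE 0.05) in that order. NBR1, a receptor with a similar build, was at 132, 123 and 136 CPM in the controls, 196, 194 and 197 CPM with P. chinensis, 184, 170 and 169 CPM with B. chinense and 180, 176 and 173 CPM with P. umbellatus. Its groups of treated and control libraries were also apart, with log2 fold changes of 0.56 (SE 0.05), 0.38 (SE 0.05) and 0.38 (SE 0.05). SQSTM1 shares 105 exonic bases with MGAT4B on the opposite strand, which rose by log2 0.35 to 0.49 in A549 cells and had a mean of 925 counts there. It shares a further 1582 bases with MRNIP, which had a mean of 74.3 counts.

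The kinase genes that start autophagy rose less. ULK1 was at 98.3, 95.2 and 102 CPM in control A549 libraries, 142, 143 and 123 CPM with P. chinensis, 127, 139 and 137 CPM with B. chinense and 132, 128 and 137 CPM with P. umbellatus. All treated libraries were above the controls, with log2 fold changes of 0.44, 0.41 and 0.37 (SE 0.06 each). ULK2, its close relative, was higher with P. chinensis (log2 0.26, SE 0.09, adjusted p = 0.0366). Without control replicate 2, or without P. chinensis replicate 1 or 2, that call was lost. ATG13, their regulatory partner, was higher with P. chinensis (log2 0.26, SE 0.06) and P. umbellatus (log2 0.17, SE 0.06). Both calls were lost when libraries were corrected for GC content and length, and the second also without control replicate 1 or 2 or any 1 of the P. umbellatus libraries. Of the lipid kinase complex, BECN1 and UVRAG did not pass the test with any extract, and ATG14 was lower with P. umbellatus (log2 -0.35, SE 0.12, adjusted p = 0.0351). That call was lost when control replicate 1 or 2, or P. umbellatus replicate 1 or 3, was left out.

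ATG2A, which moves lipids into the growing membrane, was at 52.8, 57.2 and 59.1 CPM in control A549 libraries and at 80.8, 86.9 and 76.8 CPM with P. chinensis. It was at 78.7, 73.3 and 78.8 CPM with B. chinense and at 70.2, 73.0 and 83.5 CPM with P. umbellatus. These values lay above those of the controls, with log2 fold changes of 0.50 (SE 0.08), 0.41 (SE 0.08) and 0.36 (SE 0.08). With each library corrected for GC content and length, the last pair of calls was lost. ATG9A, which brings membrane to the same site, was at log2 -0.07, -0.12 and -0.0003 and was not called.

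The conjugation enzymes hardly took part in A549 cells. ATG7, ATG16L1 and ATG5 were not called with any extract, and ATG12 was called with P. umbellatus alone (log2 0.23, SE 0.08, adjusted p = 0.039), a call lost on leaving out any 1 of the 3 controls or of the 3 P. umbellatus libraries. ATG5 had a large spread, with 13.5, 15.2 and 17.9 CPM in the controls, 3.28, 18.0 and 16.6 CPM with P. chinensis and 7.84, 9.69 and 3.04 CPM with B. chinense. Its log2 fold change of -1.17 with B. chinense did not pass the test. All 4 members of the ATG8 family were higher with P. chinensis: GABARAPL1 by log2 0.54 (SE 0.13), MAP1LC3B by 0.27 (SE 0.07), GABARAPL2 by 0.24 (SE 0.08) and GABARAP by 0.15 (SE 0.05). The call of GABARAP was lost without any 1 of the controls or P. chinensis replicate 1 or 2, that of GABARAPL2 without control replicate 1 or 3 or P. chinensis replicate 2 or 3, and that of MAP1LC3B without control replicate 2. GABARAPL1 was at 17.5, 21.3 and 17.4 CPM in the controls and at 26.7, 31.4 and 25.4 CPM with P. chinensis. It was also higher with B. chinense (25.7, 30.6 and 23.1 CPM), by log2 0.46 (SE 0.13, adjusted p = 0.0155). Without control replicate 1 or 3, or without B. chinense replicate 2, it was not called there.

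TFE3 was at 104, 93.5 and 122 CPM in control A549 libraries, 135, 149 and 139 CPM with P. chinensis, 136, 135 and 136 CPM with B. chinense and 133, 146 and 135 CPM with P. umbellatus. The lowest treated library was above the highest control, and the log2 fold changes were 0.38 (SE 0.08), 0.31 (SE 0.08) and 0.32 (SE 0.08). TFEB was at 2.83, 4.60 and 4.71 CPM in the controls and at 3.43 to 8.66 CPM in the treated libraries, and was not called with any extract.

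On the lysosomal side, ATP6V0D1, ATP6V1H, LIPA and PSAP rose with each extract in A549 cells. ATP6V0D1, a subunit of the membrane sector of the pump, was at 49.1, 58.3 and 56.0 CPM in the controls and at 83.1, 80.1 and 76.7 CPM with P. chinensis. It was at 78.4, 80.2 and 87.0 CPM with B. chinense and at 78.8, 71.5 and 70.3 CPM with P. umbellatus. None of these overlapped the controls, and the log2 fold changes were 0.52 (SE 0.08), 0.55 (SE 0.08) and 0.38 (SE 0.08). ATP6V1H, of the cytosolic sector, was at 28.7, 25.1 and 23.95 CPM in the controls and at 41.7, 36.3 and 41.8 CPM with B. chinense, its largest rise (log2 0.59, SE 0.10). With P. chinensis (34.9, 32.3 and 36.5 CPM) it rose by log2 0.39 (SE 0.10) and with P. umbellatus (33.1, 33.3 and 34.2 CPM) by 0.32 (SE 0.10). The P. umbellatus call was lost without control replicate 2 or 3 or P. umbellatus replicate 2 or 3.

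LIPA, the lysosomal acid lipase that frees cholesterol and fatty acids, was at 104, 101 and 100 CPM in control A549 libraries. It was at 144, 153 and 139 CPM with P. chinensis, 144, 142 and 126 CPM with B. chinense and 130, 144 and 134 CPM with P. umbellatus, with log2 fold changes of 0.48, 0.40 and 0.36 (SE 0.06 each). PSAP was at 649, 643 and 655 CPM in the controls and between 788 and 858 CPM in the 9 treated libraries, and rose by log2 0.29, 0.33 and 0.29 (SE 0.04 each). Neither gene's treated libraries overlapped the controls. HEXA, a subunit of the hexosaminidase that degrades gangliosides, was higher with P. chinensis (log2 0.47, SE 0.13) and with B. chinense (log2 0.39, SE 0.13, adjusted p = 0.0422). The first call was lost without P. chinensis replicate 1 and the second without control replicate 1 or 2 or B. chinense replicate 2 or 3. GLA, the alpha-galactosidase, went the other way. It was at 80.5, 80.6 and 84.1 CPM in the controls, 68.0, 67.9 and 65.3 CPM with P. chinensis and 73.3, 75.5 and 65.9 CPM with P. umbellatus, and fell by 0.31 (SE 0.06) and 0.24 (SE 0.06) on the log2 scale. With B. chinense (70.3, 74.5 and 77.3 CPM) the log2 fold change of -0.18 was not called. NEU1 was at 0.261 to 7.38 CPM over the 12 A549 libraries and was not called.

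Among the proteases, CTSD rose with each extract, CTSA with P. chinensis and CTSL with P. umbellatus. CTSD was at 326, 319 and 330 CPM in control A549 libraries, 389, 383 and 359 CPM with P. chinensis, 431, 418 and 411 CPM with B. chinense and 459, 442 and 468 CPM with P. umbellatus. The 4 groups did not overlap each other, and the log2 fold changes were 0.19 (SE 0.04), 0.33 (SE 0.04) and 0.43 (SE 0.04). With the GC and length correction the P. chinensis call was lost. CTSA was higher with P. chinensis (log2 0.27, SE 0.07) and lost its call under the same correction. CTSL was higher with P. umbellatus (log2 0.31, SE 0.11, adjusted p = 0.0399), where its libraries spread from 189 to 277 CPM. This call was lost without any 1 of the controls or P. umbellatus replicate 1 or 2. CTSB and CTSZ were not called. LAMP2 was higher with the 3 extracts (log2 0.27, 0.26 and 0.20, SE 0.06 each), and LAMP1 with B. chinense (log2 0.22, SE 0.06) and P. umbellatus (log2 0.17, SE 0.06, adjusted p = 0.0431). LAMP2's P. umbellatus call needed control replicate 2 and P. umbellatus replicate 2. LAMP1's B. chinense call needed B. chinense replicate 1, and its P. umbellatus call held in only 5 of 12 fits that each left out 1 library. The channel MCOLN1 (log2 -0.19, -0.24 and -0.27) was not called.

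**Figure D2:**
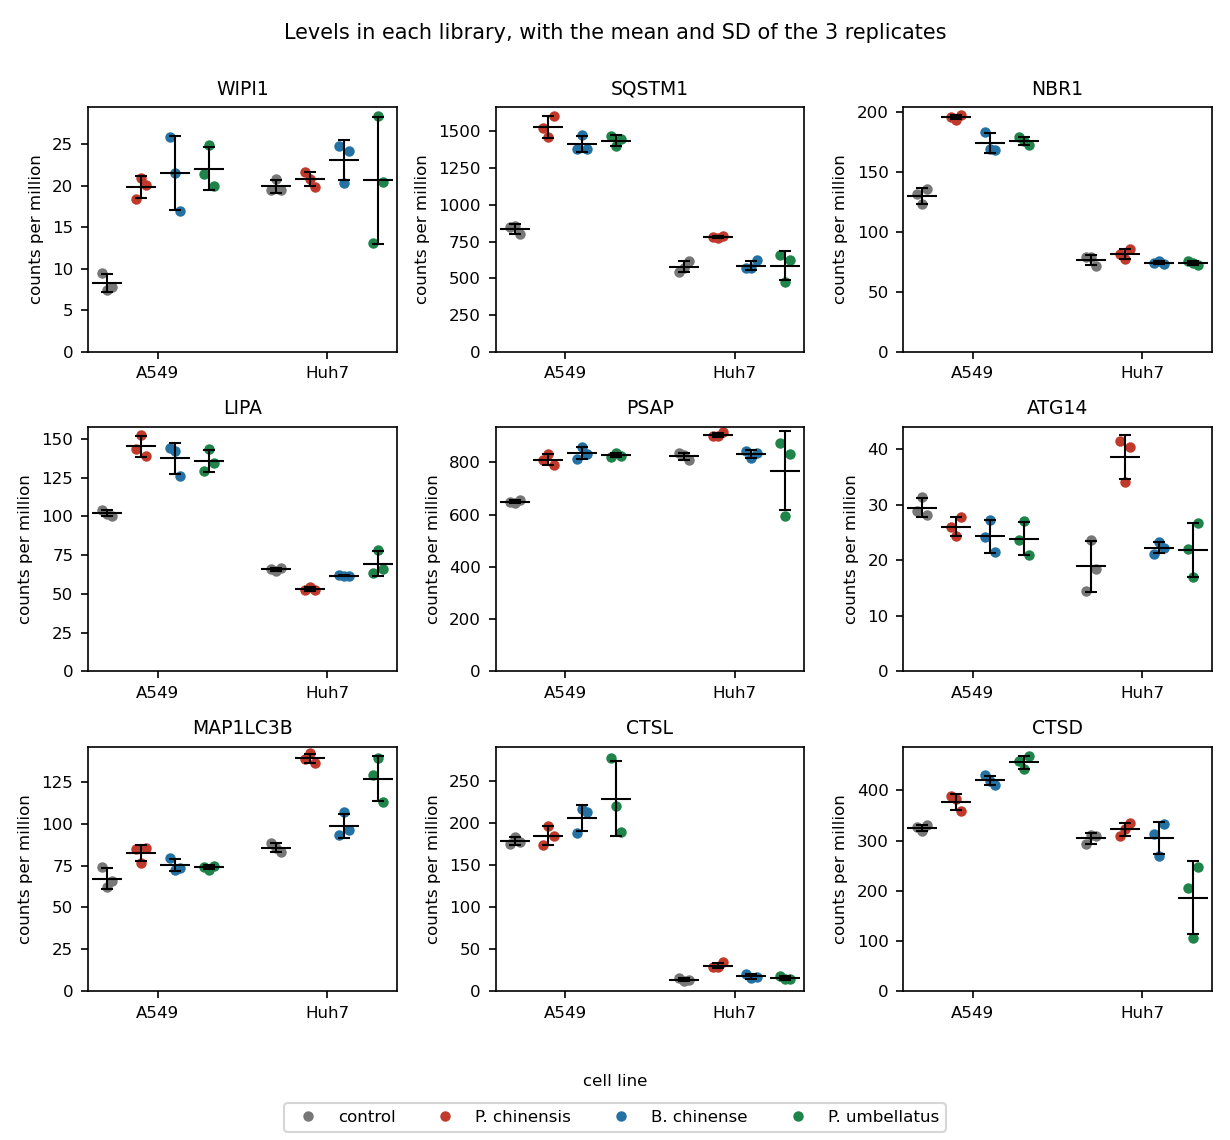
Level of 9 genes in CPM (vertical axes, from 0) in each of the 24 libraries, by cell line and treatment; points are libraries, the horizontal mark is the group mean and the bar the SD of 3 replicates. WIPI1, SQSTM1, NBR1, LIPA and PSAP sit above the controls with all extracts in A549 cells, while ATG14, MAP1LC3B and CTSL sit above the controls with P. chinensis in Huh7 cells, and CTSD is lowest in Huh7 replicate 2 of P. umbellatus (105 CPM).

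The extracts were also compared with each other in A549 cells, a comparison that uses no control library. With P. chinensis, 1 of the 37 genes was higher than the mean of the other two and 1 was lower, against 1.15% of all genes higher and 2.42% lower. NBR1 was higher by log2 0.18 (SE 0.04) and CTSD lower by 0.20 (log2 -0.20, SE 0.04). Against control, CTSD rose with every extract and least with P. chinensis. The NBR1 call was lost on leaving out any of the 3 P. chinensis libraries, B. chinense replicate 2 or 3, or P. umbellatus replicate 2 or 3. In these fits 0 or 1 of the 37 genes were called, and 0.858% to 3.21% of all genes, in place of 3.57%. The NBR1 call was also lost with the GC and length correction, with and without the replicate block. CTSD lost its call without P. chinensis replicate 3.

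In Huh7 cells, P. chinensis raised 6 of the 37 genes and lowered 1, against 10.5% of all genes higher and 10.5% lower. The machinery supplied 5 of the 6 (ATG14, MAP1LC3B, SQSTM1, WIPI2 and BECN1), and CTSL was the lysosomal gene. The median log2 fold change was 0.22 for the machinery and 0.13 for the lysosomal genes, against 0.01 for all genes tested. The fit shares its estimate of the spread with replicate 2 of P. umbellatus. Without that library 12 of the 37 genes were higher and 2 lower, while all genes called rose to 34.9%. With the libraries corrected for GC content and length, 7 were higher and 3 lower, with 33.2% of all genes called. With upper quartile normalization 9 were higher and 0 lower, with 21% of all genes called.

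CTSL had the largest change in Huh7 cells. It was at 15.5, 11.95 and 13 CPM in the controls, 28.6, 28.2 and 33.9 CPM with P. chinensis, 20.1, 14.9 and 17 CPM with B. chinense and 18.0, 14.5 and 13.8 CPM with P. umbellatus. Only the P. chinensis libraries lay wholly above the controls, with a 2.27-fold rise (log2 1.18, SE 0.15, adjusted p = 0.000184). Even so, the highest Huh7 level of CTSL was well below the lowest in A549 cells (174 CPM). CTSV, a close relative of CTSL with which reads could be shared, had a log2 fold change of 0.08 with P. chinensis in Huh7 cells (adjusted p = 0.817).

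ATG14 directs the BECN1 lipid kinase to the site where autophagosomes form. In Huh7 cells it was at 14.6, 23.6 and 18.5 CPM in the controls and at 41.4, 34.1 and 40.4 CPM with P. chinensis, a 2.08-fold rise (log2 1.06, SE 0.18, adjusted p = 0.00129). The B. chinense libraries (21.2, 23.2 and 22.2 CPM) and the P. umbellatus libraries (22.0, 16.9 and 26.6 CPM) overlapped the controls. In A549 cells ATG14 was at 28.1 to 31.4 CPM in the controls and at 24.3 to 27.8 CPM with P. chinensis. FBXO34, which shares 1047 exonic bases with ATG14 on the opposite strand, had a log2 fold change of 0.01 in Huh7 cells with P. chinensis (adjusted p = 0.973). BECN1 was higher by log2 0.25 (SE 0.08, adjusted p = 0.036), a call that held in only 3 of 12 fits with 1 library left out. WIPI2 was at 79.3, 77.0 and 86.2 CPM in the controls and at 105, 97.2 and 106 CPM with P. chinensis (log2 0.37, SE 0.08).

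MAP1LC3B, which encodes LC3B, the usual marker of autophagosomes, was at 88.5, 85.3 and 83.1 CPM in Huh7 controls and at 139, 142 and 137 CPM with P. chinensis, with no overlap (1.66-fold, log2 0.73, SE 0.08, adjusted p = 8.54e-05). It was at 129, 139 and 113 CPM with P. umbellatus, also above every control (log2 0.60, SE 0.08, adjusted p = 0.000847). With B. chinense it was at 93.2, 107 and 96.2 CPM, and its log2 fold change of 0.21 did not pass the test (adjusted p = 0.317). Its near copy MAP1LC3B2, with which reads could be shared, had a mean of 18.1 counts in Huh7 cells and was also higher with P. umbellatus (log2 1.45, SE 0.52, adjusted p = 0.0445). SQSTM1 was at 546, 572 and 618 CPM in Huh7 controls and at 780, 777 and 789 CPM with P. chinensis (log2 0.46, SE 0.10, adjusted p = 0.00616). With B. chinense (569, 567 and 621 CPM) and P. umbellatus (656, 478 and 627 CPM) it overlapped the controls. LIPA went down with P. chinensis, from 66.3, 64.9 and 66.4 CPM to 52.4, 54.8 and 52.5 CPM (log2 -0.28, SE 0.08, adjusted p = 0.0264), the opposite direction to that in A549 cells. The call of LIPA was lost without Huh7 control replicate 1 or 3 or P. chinensis replicate 1 or 3, and under upper quartile normalization.

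B. chinense changed 0 of the 37 genes in Huh7 cells by edgeR's quasi-likelihood test, where 0.519% of all genes were higher and 0.757% lower. At an unadjusted p below 0.05 there were 3 genes, all higher: ULK2, MAP1LC3B and CTSL, which had log2 fold changes of 0.61 (SE 0.23), 0.21 (SE 0.08) and 0.36 (SE 0.15). DESeq2 called 0 genes, limma's voom with sample weights called 1 higher, and edgeR on the 6 libraries of the comparison alone called 1 lower. Of all genes, these fits called 3.71%, 8.86% and 8.09%. Without P. umbellatus replicate 2, 0 of the 37 genes were called, with 6.57% of all genes called. ULK2 was at 2.09, 2.44 and 2.63 CPM in Huh7 controls and at 4.22, 3.37 and 3.52 CPM with B. chinense, with no overlap. Of all genes tested, 12.3% had an unadjusted p below 0.05.

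P. umbellatus gave a mixed picture in Huh7 cells, with 4 genes higher and 6 lower, against 19.3% of all genes higher and 17.8% lower. Higher were ULK2 (log2 0.87, SE 0.24), ATG5 (0.72, SE 0.26), MAP1LC3B (0.60, SE 0.08) and ATG12 (0.35, SE 0.10). Lower were CTSD (-0.68, SE 0.21), ULK1 (-0.67, SE 0.22), ATG2A (-0.50, SE 0.17), ATG9A (-0.48, SE 0.15), CTSB (-0.47, SE 0.09) and GABARAP (-0.20, SE 0.07). CTSD was at 292, 312 and 309 CPM in the controls and at 206, 105 and 247 CPM with P. umbellatus. ULK1 was at 55.2, 51.6 and 56.8 CPM in the controls and at 32.3, 19.0 and 48.2 CPM with P. umbellatus. For both genes all treated libraries were below the controls and replicate 2 was the lowest. CTSB was more even, at 90.8, 85.8 and 85.9 CPM in the controls and at 63.6, 60.1 and 61.6 CPM with P. umbellatus. ULK2 was at 3.75, 5.89 and 3.63 CPM and ATG5 at 27.2, 43.4 and 26.1 CPM with P. umbellatus, again with replicate 2 at the extreme. TFEB was at 1.70, 0 and 1.57 CPM there and was not called. Leaving out 1 of the 3 Huh7 control libraries left 3, 5 or 4 genes called (without replicate 1, 2 or 3). Of all genes, these fits called 25.7%, 23.4% and 24.3%. ULK1, ATG2A, ATG9A and CTSD lost their call in each of these fits, while 14 genes were called without P. umbellatus replicate 3 (45.9% of all genes). The call of ATG5 held in 4 of 12 fits with 1 library left out, and that of ULK2 was lost without control replicate 1 or P. umbellatus replicate 2. GABARAP lost its call in 5 of the 12, and ATG12 without control replicate 2.

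These changes moved with GC content. Over all 13875 genes of Huh7 cells, the log2 fold change with P. umbellatus correlated at -0.613 with the GC content of the canonical transcript. Over the 37 genes the correlation was -0.716. It was -0.051 and -0.183 with P. chinensis in Huh7 cells, and 0.096 and 0.104 with P. umbellatus in A549 cells. These correlations are across genes of the same libraries, which are not independent. The 12 genes with at least 55% GC had a median log2 fold change of -0.41 with P. umbellatus, and the other 25 a median of 0.10, against -0.51 and 0.18 for all genes tested. Taken library by library against the mean of the controls, the correlation over all genes was -0.433, -0.651 and -0.36 in replicates 1, 2 and 3, so the trend was present in each of the 3. It lay between -0.093 and 0.134 in the treated libraries of every other group of both lines. Its part in the changes of the 37 genes was not tested.

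**Figure D3:**
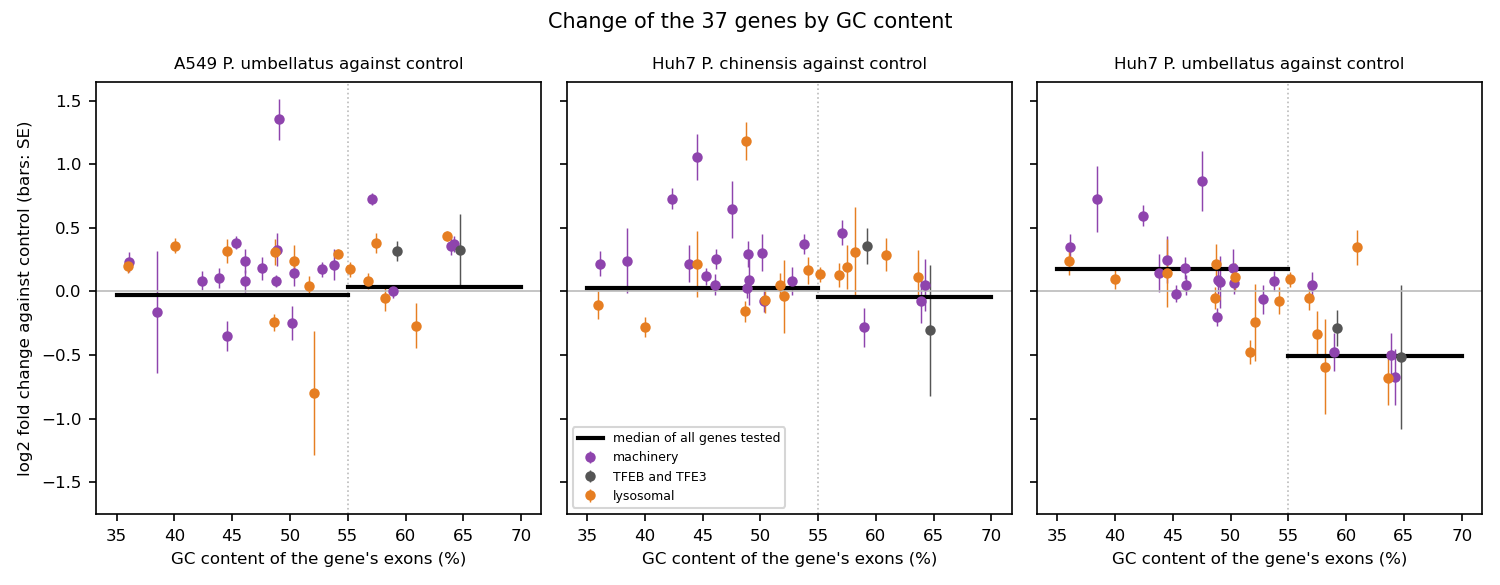
Log2 fold change against control (vertical axis, bars are SE) of the 37 genes in 3 comparisons. The horizontal axis is the GC content of their canonical transcript in percent. Black lines are the medians of all genes tested below and above 55% GC. The points fall with GC content for P. umbellatus in Huh7 cells, where the black lines lie at 0.18 and -0.51, and show little slope in the other panels.

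With each library corrected for GC content and length, 7 genes were higher and 1 lower with P. umbellatus in Huh7 cells. All genes called fell from 37% to 19.5%. With this correction ULK1, ATG2A and CTSD were at log2 0.07, 0.24 and 0.09, so their direction turned, and ATG12 was at -0.01. SQSTM1 (log2 0.44, SE 0.05), LAMP1 (0.39, SE 0.08), MCOLN1 (1.01, SE 0.19), WIPI2 (0.26, SE 0.06) and CTSA (0.35, SE 0.07) were called here with the correction and not without it. Without replicate 2, 3 genes were higher (MAP1LC3B, ATG12 and SQSTM1) and 4 lower (ULK1, ATG9A, CTSB and CTSD), with 32.9% of all genes called. On the 6 libraries of the comparison alone, 2 genes were called, with 8.84% of all genes called. MAP1LC3B and CTSB kept their call and direction under all 10 alternative settings and all 12 fits with 1 library left out. MAP1LC3B was at log2 0.43 and CTSB at -0.39 after the GC correction, and at 0.52 and -0.46 without replicate 2.

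P. chinensis was also set against the mean of the other two extracts in Huh7 cells. With P. chinensis, 8 of the 37 genes were higher than that mean and 1 was lower, against 9.69% of all genes higher and 12.1% lower. CTSL (log2 0.89, SE 0.13) and ATG14 (0.81, SE 0.15) were the largest, followed by TFE3 (0.48, SE 0.12), SQSTM1 (0.43, SE 0.09), CTSB (0.36, SE 0.08), MAP1LC3B (0.32, SE 0.07), WIPI2 (0.29, SE 0.07) and BECN1 (0.22, SE 0.07). LIPA was lower (-0.29, SE 0.07). Against control, TFE3 (log2 0.36) and CTSB (0.05) were not called with P. chinensis, and CTSB was lower with P. umbellatus (-0.47). The P. umbellatus libraries enter the comparison of the extracts, and the correlation of its log2 fold changes with GC content over all genes was 0.394. Without their replicate 2, and likewise without their replicate 3, 13 genes were higher and 2 lower, with 30% and 32.5% of all genes called. Without P. chinensis replicate 3, 4 genes were called (10.2% of all genes), with BECN1, CTSB, LIPA, TFE3 and WIPI2 lost. With the GC and length correction, 8 were higher and 3 lower, with 28.2% of all genes called.

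An interaction test over the 24 libraries asked whether the lines differed in their change. For P. chinensis, 7 of the 37 genes had a higher change in A549 cells than in Huh7 cells and 3 a lower one, against 10.3% and 9.3% of all genes. The difference in log2 fold change was 1.19 (SE 0.27) for WIPI1, 0.82 (SE 0.10) for LIPA, 0.50 (SE 0.08) for NBR1 and 0.44 (SE 0.11) for SQSTM1. It was -1.21 (SE 0.22) for ATG14, -1.09 (SE 0.18) for CTSL and -0.40 (SE 0.11) for MAP1LC3B, whose rise was larger in Huh7 cells. Without Huh7 control replicate 3 the counts were 3 and 3 (16.5% of all genes called), with SQSTM1 among the genes lost. For B. chinense, 4 genes had a higher change in A549 cells (WIPI1, SQSTM1, NBR1 and LIPA) and 0 a lower one, against 5.8% and 5.8% of all genes. At an unadjusted p below 0.05 there were 17 of the 37, against 24.3% of all genes. DESeq2 called 7 (14.1% of all genes), and 11 were called without Huh7 P. umbellatus replicate 2 (18.7% of all genes). For P. umbellatus, 13 genes had a higher change in A549 cells and 2 a lower one, against 19.1% and 15.3%. The Huh7 side of that difference carries the GC trend. With the GC and length correction the counts were 10 and 3, with 25.3% of all genes called.

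The arms were then set against each other. For each library, the log2 levels of the 20 machinery genes and of the 15 lysosomal genes were averaged relative to the controls of the line. In A549 cells the machinery mean was 0.29 ± 0.05 (SD, n = 3), 0.19 ± 0.10 and 0.26 ± 0.01 for P. chinensis, B. chinense and then P. umbellatus. The lysosomal mean was 0.20 ± 0.06, 0.28 ± 0.01 and 0.13 ± 0.12. The lysosomal mean was the higher in the 3 B. chinense libraries and the lower in the other 6 treated libraries, but by little in several. Lysosomal minus machinery was 0.028, 0.0296 and 0.1989 in the B. chinense libraries and -0.016, -0.016 and 0.0319 in the controls. It was also small in replicate 1 of P. chinensis (-0.0288) and of P. umbellatus (-0.0256). The median log2 fold changes with P. umbellatus put the lysosomal genes higher (0.20 against 0.18). B. chinense replicate 3 had the lowest machinery mean of the treated A549 libraries (0.07) and P. umbellatus replicate 3 the lowest lysosomal mean (-0.003), where NEU1 was at 0.261 CPM. In Huh7 cells with P. chinensis the machinery mean was 0.21 ± 0.01 and the lysosomal mean 0.11 ± 0.02, and the machinery was higher in each of the 3 libraries. With B. chinense both means were near the controls, at 0.06 ± 0.03 and 0.00 ± 0.04. With P. umbellatus the machinery mean was 0.04 ± 0.06 and the lysosomal mean -0.15 ± 0.18, and the latter was -0.09, -0.36 and -0.01 in replicates 1, 2 and 3. These means are a description, since low genes such as NEU1 and ATG5 weigh as much as abundant ones.

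**Figure D4:**
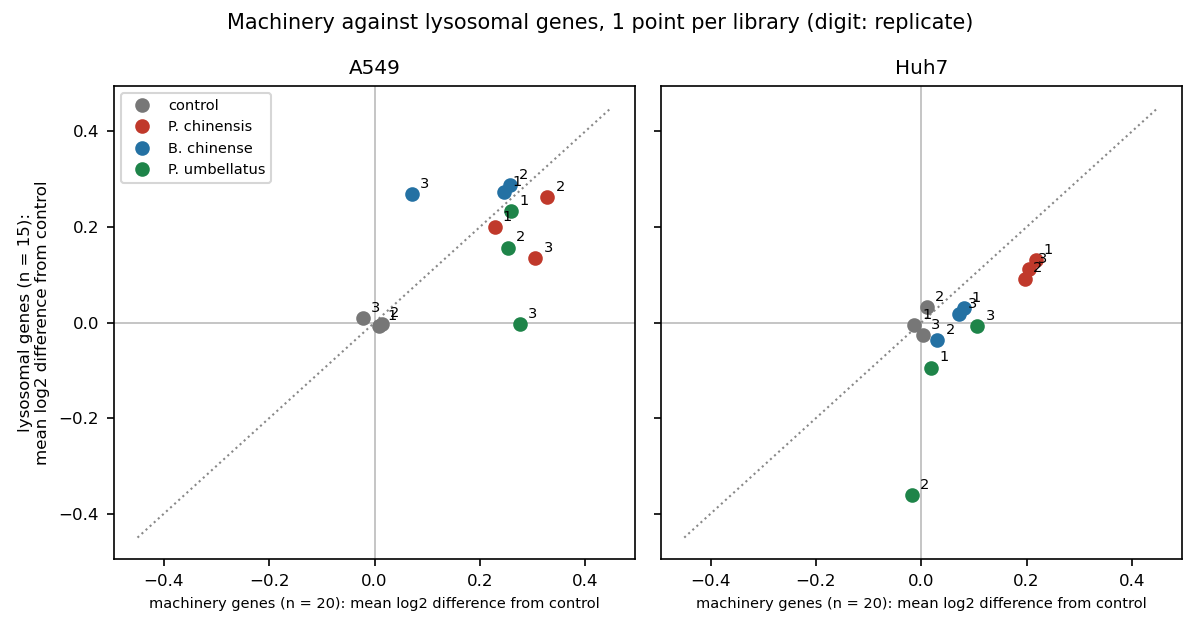
Mean log2 difference from the controls of the line for the 20 machinery genes (horizontal axis) and the 15 lysosomal genes (vertical axis), with 1 point per library, the replicate number beside it and a dotted line where both are equal. Treated A549 libraries lie to the right of the controls and, but for P. umbellatus replicate 3 at -0.003, above them. Huh7 libraries with P. chinensis lie close together below the line, and Huh7 replicate 2 of P. umbellatus is lowest at -0.36 on the lysosomal axis.

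The other genes of the pathway were taken from 6 fixed lists. Among all genes tested in A549 cells, 15.8%, 13.1% and 13.4% were higher and 17.1%, 15% and 14.8% lower, for P. chinensis, B. chinense and then P. umbellatus. Of the other V-ATPase subunits, 10 of 15 were higher and 1 lower with P. chinensis, and the counts were 6 and 0 for B. chinense as well as for P. umbellatus. Of 40 other lysosomal hydrolases, 13, 17 and 19 were higher and 4, 1 and 3 lower, with the extracts in the same order. Other lysosomal membrane proteins (18 tested) gave 7 higher and 1 lower, 7 and 1, and 6 and 1. Of 11 other cargo receptors, 6, 5 and 5 were higher and 0 lower. Other core autophagy genes (24 tested) gave 5 higher and 0 lower, 2 and 2, and 3 and 1. Of 20 upstream regulators, 8 were higher and 1 lower, 8 and 1, and 5 and 1. The median log2 fold changes with P. chinensis were 0.26 for the V-ATPase, 0.17 for the hydrolases, 0.24 for the receptors and 0.02 for the core genes, where the median of all genes was 0.01.

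SMPD1, the acid sphingomyelinase, rose in A549 cells by log2 1.47 (SE 0.20), 1.38 (SE 0.20) and 1.31 (SE 0.20), again in that order. RRAGD, a GTPase that ties the kinase mTORC1 to the lysosome, rose by 1.26 (SE 0.17), 0.92 (SE 0.17) and 0.72 (SE 0.17). OPTN, a receptor for damaged mitochondria and other cargo, rose by 0.88 (SE 0.12), 0.71 (SE 0.13) and 0.80 (SE 0.12). The sialic acid exporter SLC17A5 rose by 0.76, 0.76 and 0.53 (SE 0.10 each). Against these, GGH, which removes glutamates from folates, fell by 0.84 (SE 0.14), 0.63 (SE 0.14) and 0.78 (SE 0.14), and the cholesterol transporter NPC1 by 0.21 (SE 0.06), 0.39 (SE 0.06) and 0.42 (SE 0.06).

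In Huh7 cells with P. chinensis, where 10.5% of all genes were higher and 10.5% lower, 6 of 23 other core genes were higher and 0 lower, and 5 of 15 other V-ATPase subunits were higher and 0 lower. The hydrolases gave 8 higher and 4 lower of 40, the membrane proteins 2 and 2 of 18, the receptors 2 and 1 of 11, and the upstream regulators 6 and 2 of 19. IDS, the iduronate sulfatase, rose by log2 2.03 (SE 0.17), FUCA1, the fucosidase, by 1.48 (SE 0.24), RRAGC, a partner of RRAGD, by 1.26 (SE 0.10) and OPTN by 0.97 (SE 0.09). The sulfatase ARSB fell by 0.59 (SE 0.08). With B. chinense the V-ATPase subunit ATP6V0E2 (log2 1.04, SE 0.22) and RRAGC (0.69, SE 0.10) were the only genes of the 6 lists that were called. With P. umbellatus, where 19.3% of all genes were higher and 17.8% lower, 9 core genes were higher and 1 lower. There were 8 V-ATPase subunits higher and 2 lower, 7 hydrolases higher and 7 lower, 2 membrane proteins higher and 4 lower, 4 receptors higher and 1 lower, and 6 regulators higher and 3 lower. GC content was not examined for these lists. Their counts in Huh7 cells come from fits that include replicate 2 of P. umbellatus, and counts without it are not given.

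**Figure D5:**
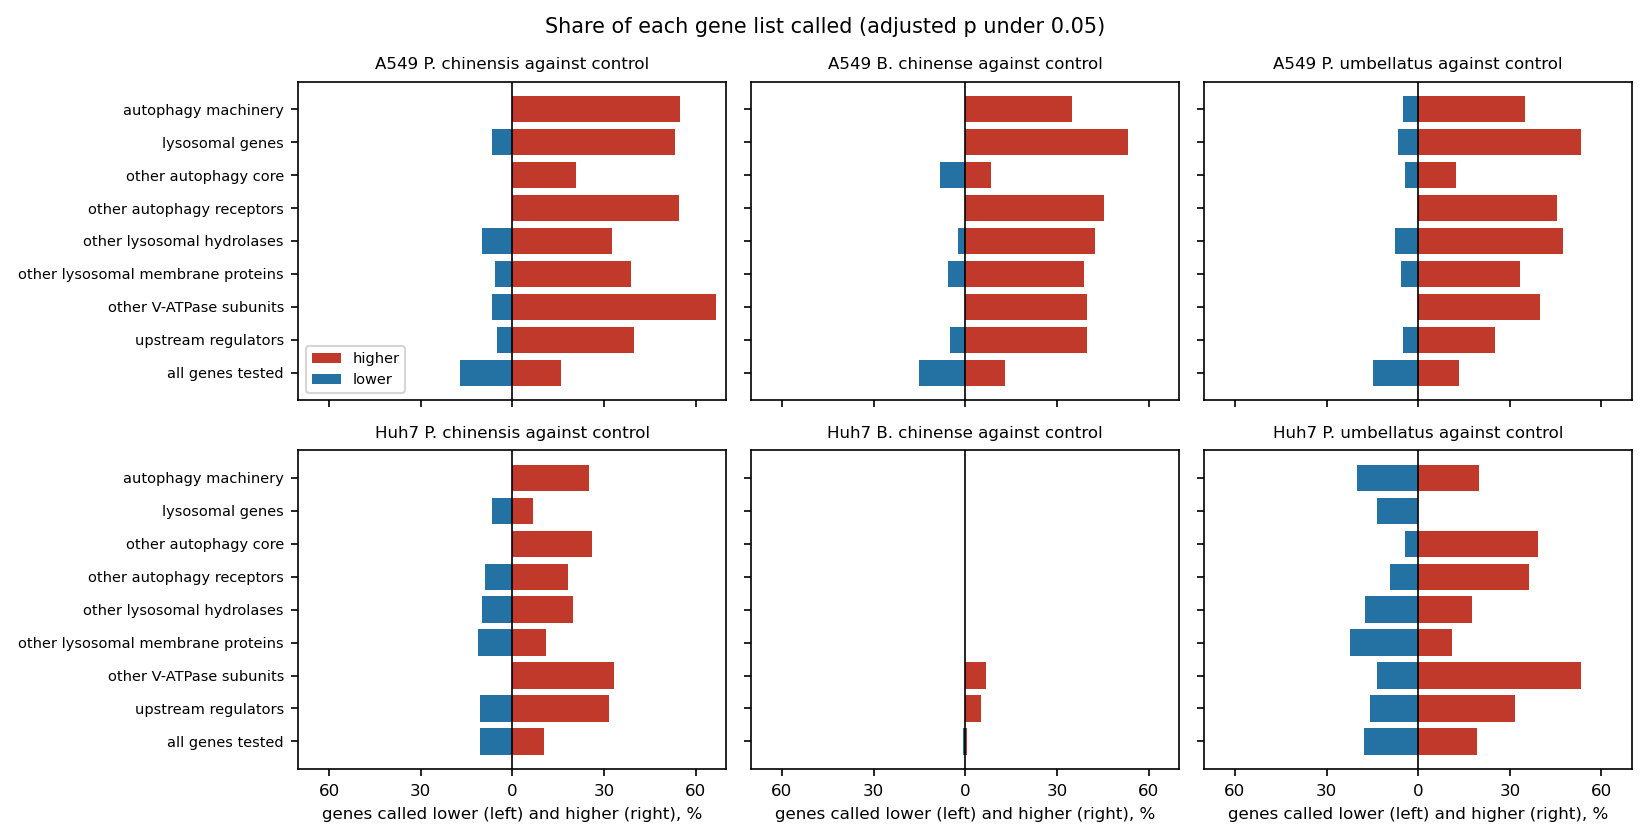
Percent of the tested genes of each list called higher (red, to the right) or lower (blue, to the left) at an adjusted p below 0.05, for 3 extracts in A549 cells (top) and Huh7 cells (bottom), with all genes tested at the foot of each panel. In A549 cells all lists but the other core genes reach well past the red bar of all genes (13.1% to 15.8%), and in Huh7 cells with B. chinense nearly all bars are empty.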

How the data were processed

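Per the labels and the paper's methods, the authors prepared ribosome-depleted libraries, quantified reads with kallisto against Ensembl GRCh38 transcripts, and deposited a gene table of estimated counts in whole numbers, for protein-coding genes with a mean above 5. The strand setting of kallisto and the summing over transcripts are not given in the sources used here. Genes that overlap on opposite strands, and near copies, may therefore share counts. BECN1 shares 300 exonic bases with PSME3 on the opposite strand (mean counts 843.1 and 3662). Genes on the same strand may share counts under any setting. CTSD, ATG9A, GABARAP, HEXA and MCOLN1 share 1304, 1833, 691, 617 and 169 exonic bases with a same-strand coding gene absent from the deposited table. The 24 libraries summed to between 6803704 and 24345541 counts.

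In R 4.3.3, edgeR 4.0.16 was used with TMM normalization and 1 quasi-likelihood fit per cell line (12 libraries, prior count of 2) on genes with a mean above 5 counts in that line, 13633 in A549 and 13875 in Huh7 cells. Contrasts between the lines used 24 libraries and 12924 genes. Genes with a two-sided Benjamini-Hochberg adjusted p below 0.05, over all genes tested, were called. Printed CPM values were scaled over 24 libraries with TMM, and SE is on the log2 scale. For edgeR the SE was derived as the absolute log2 fold change over the square root of the quasi-likelihood F statistic. Levels per kb, gene length and GC content used the canonical transcript of each gene in the GRCh38 annotation. Shared exonic bases were counted over the exons of all transcripts of a gene. The 37 genes, the 6 lists and the tests were chosen with earlier results of these data known. Any of the 37 could be named, and of each list up to 2 rises and 2 falls per comparison with a mean of at least 50 counts. Alternatives were DESeq2 1.42.0, voom of limma 3.58.1, other normalizations and count filters, the libraries compared alone, the replicate number as a block, a GC and length correction, and each replicate left out. The scripts were tested on simulated data.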

Additional observations from a re-analysis of the deposited data

Results flagged for a closer look

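Each change listed here differed between A549 and Huh7 cells by a test of the difference itself, the interaction of edgeR's quasi-likelihood test at an adjusted p below 0.05. Values are log2 fold changes in A549 cells minus those in Huh7 cells, so a positive value means a higher change in A549 cells. With P. chinensis the difference was 1.19 for WIPI1, 0.82 for LIPA, 0.64 for ATG2A, 0.59 for HEXA, 0.50 for NBR1, 0.44 for SQSTM1 and 0.42 for LAMP2. It was -1.21 for ATG14, -1.09 for CTSL and -0.40 for MAP1LC3B. The calls of ATG2A, HEXA and LAMP2 were lost in 5 to 7 of the 24 fits that left out 1 library, and that of SQSTM1 without Huh7 control replicate 3.

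With B. chinense it was 1.16 for WIPI1, 0.74 for SQSTM1, 0.52 for LIPA and 0.46 for NBR1, and these calls held under the 10 alternative settings and the 24 fits with 1 library left out.

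With P. umbellatus it was 1.36 for WIPI1, 1.19 for CTSD, 1.12 for ULK1, 0.95 for ATG2A, 0.79 for ATP6V0D1, 0.76 for SQSTM1, 0.68 for TFE3, 0.60 for CTSB, 0.56 for ATG9A, 0.48 for NBR1, 0.45 for PSAP, 0.37 for GABARAP and 0.34 for LIPA. It was -0.58 for ULK2 and -0.43 for MAP1LC3B. With the GC and length correction, the calls of ULK1, ATG2A, ATG9A, ATP6V0D1, TFE3 and PSAP were lost. That of ULK2 was lost under 4 of the 10 alternative settings, and that of LIPA without Huh7 control replicate 3 or Huh7 P. umbellatus replicate 1 or 3.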

How the results depend on the processing

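Of the counts of the 37 genes, those in A549 cells against control stayed within 1.5 times their value under all settings. In Huh7 cells, P. chinensis gave 21 genes in place of 7 both with voom and on the compared libraries alone. All genes called rose there from 20.9% to 45.6% and 42.2%. P. umbellatus gave 2 in place of 10 on the compared libraries alone, where all genes called fell from 37% to 8.84%. B. chinense in Huh7 cells gave 1 in place of 0 with voom and with the compared libraries alone. All genes called rose from 1.28% to 8.86% and 8.09%. P. chinensis against the other extracts gave 17 in place of 9 with voom in Huh7 cells (34.6% of all genes in place of 21.8%). In A549 cells it gave 1 in place of 2 with the GC and length correction, with or without the replicate block. All genes called were then 4.39% and 5.57%, in place of 3.57%. The difference between the lines gave 17 in place of 10 for P. chinensis with voom (31.1% of all genes in place of 19.6%). For B. chinense it gave, in place of 4, 7 with DESeq2, 10 with voom and 13 on the compared libraries alone. It gave 8 with the GC and length correction, and 9 with that correction and the replicate block. All genes called were 14.1%, 19.2%, 18.2%, 18.3% and 17% in that order, in place of 11.6%. Leaving out 1 library at a time gave 5 to 14 genes for P. chinensis in Huh7 cells (13.3% to 34.9% of all genes). For P. umbellatus there it gave 3 to 14 (23.4% to 45.9%). P. chinensis against the other extracts gave 4 to 15 in Huh7 cells (10.2% to 32.5%) and 0 to 2 in A549 cells (0.858% to 3.77%). The differences between the lines gave 6 to 13 with P. chinensis (16.4% to 27.4%) and 4 to 11 with B. chinense (8.74% to 18.7%).

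The GC and length correction turned the direction of single genes, given as log2 without and with the replicate block. Only genes called without or with the correction are listed for a setting. A gene not listed for a setting may have turned without a call. With P. umbellatus in Huh7 cells these were ULK1 (0.0664 and 0.0591), ATG2A (0.24 and 0.23), ATG12 (-0.0053 and -0.0067), CTSA (0.35 and 0.35) and CTSD (0.0861 and 0.0804). For P. chinensis against the other extracts in Huh7 cells they were ATG9A (-0.18 and -0.18) and, with the block, CTSA (-0.15). For the difference between the lines with P. umbellatus they were ATG9A (-0.0333 and -0.0317), ATG2A (-0.0189 and -0.0129), ATG12 (0.31, without the block) and CTSA (-0.27, with it). Between the controls of the lines it was ATG2A (0.31 and 0.33). The cause was not tested.

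Replicate numbers did not pair the samples: the correlation of same-numbered deviations lay between -0.057 and 0.06 over 18 pairs of libraries per line. These pairs are not independent. With the replicate block, P. umbellatus in Huh7 cells gave 8 genes in place of 10, and P. chinensis 7 in place of 7. All genes called were then 35.5% and 18.9%, in place of 37% and 20.9%.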
